A study of Mus musculus with 288 samples.

Results

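Themis, Cd3e, Cd3g, Cd3d, Cd8a, Gzmk, Gzma, Nkg7, Ccl5 and Il2rb are genes by which T cells and cytotoxic lymphocytes are known. Here their RNA was followed in whole mouse liver. The 10 genes were taken by exact symbol from the deposited count tables, where each occurred once among 21869 genes. The livers came from wild type male C57BL/6J mice that lived alone in cages with a running wheel. Mice of 19 months were set against mice of 6 months under 6 feeding conditions, and mice on caloric restriction (CR) against mice with food at all times (ad libitum, AL). In CR-spread the restricted ration came as pellets over all 24 h of the day. In CR-day-12h and CR-night-12h it came over 12 h of the day or of the night. In CR-day-2h and CR-night-2h it was eaten as a meal of 2 h by day or by night. CR began in young adult mice. With 6 feeding conditions and 2 ages there were 12 groups of 24 livers, collected at 12 time points from hour 0 to hour 44 with replicates A and B at each. By the study's account the mice had been moved to constant darkness for the collection.

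T cells recognise antigen with the T cell receptor, whose signal is carried by the invariant CD3 chains, among them the products of Cd3e, Cd3g and Cd3d. THEMIS is a cytoplasmic adaptor that sets the strength of that signal, and mouse thymocytes that lack it mature poorly. CD8 marks T cells that kill, and killing uses granules that hold granzymes. The liver holds a resident pool of CD8 T cells, NK cells and other lymphocytes in its sinusoids and tissue, a minority of its cells beside the hepatocytes.

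Themis lies on chromosome 10, at 28668360 to 28883818 on the plus strand of GRCm38 in GENCODE M21. Cd3g and Cd3d start 1355 bases apart on chromosome 9 and are read away from each other, and the stretch from Cd3g to Cd3e covers 40056 bases (Cd3g at 44969572 to 44980431 and Cd3e at 44998740 to 45009627, both on the minus strand). Cd8a lies on chromosome 6 at 71373427 to 71379173, plus strand. The promoters of these 4 genes are printed because Themis had a larger fold change with age in AL livers than the CD3 and CD8 genes in the results that follow. Each runs from 250 bases before to 50 bases after the start site, is taken from RefSeq on GRCm38.p6 and is written in the direction of the gene, and 8 of the 10 genes had an entry, Ccl5 and Il2rb being the others. Capitals mark GGAAG, a form of the motif of the ETS factors, searched on both strands (CTTCC on the other). Of the 32851 promoters of this length, 71.4% held it. The RUNX core TGTGGT and the STAT motif TTCNNNGAA, held by 16.8% and 8.3% of all promoters, were searched in the same way and were not found in these 4 windows, where no motifs overlapped.
Themis: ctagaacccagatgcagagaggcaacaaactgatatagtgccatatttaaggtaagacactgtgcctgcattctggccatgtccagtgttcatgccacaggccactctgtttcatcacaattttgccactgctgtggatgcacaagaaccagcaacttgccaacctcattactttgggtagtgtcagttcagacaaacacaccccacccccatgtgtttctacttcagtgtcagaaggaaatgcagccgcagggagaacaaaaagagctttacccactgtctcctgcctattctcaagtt
Cd3e: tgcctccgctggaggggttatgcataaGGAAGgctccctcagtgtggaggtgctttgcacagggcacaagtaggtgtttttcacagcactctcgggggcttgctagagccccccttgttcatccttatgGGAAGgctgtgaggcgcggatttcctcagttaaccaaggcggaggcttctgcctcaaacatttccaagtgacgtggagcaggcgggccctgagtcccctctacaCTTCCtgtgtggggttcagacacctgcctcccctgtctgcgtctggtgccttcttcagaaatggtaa
Cd3g: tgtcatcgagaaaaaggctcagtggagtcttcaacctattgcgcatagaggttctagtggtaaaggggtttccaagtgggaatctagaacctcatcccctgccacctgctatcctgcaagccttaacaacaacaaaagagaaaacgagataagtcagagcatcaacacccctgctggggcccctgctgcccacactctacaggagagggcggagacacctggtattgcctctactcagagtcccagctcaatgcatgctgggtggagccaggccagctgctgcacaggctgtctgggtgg
Cd8a: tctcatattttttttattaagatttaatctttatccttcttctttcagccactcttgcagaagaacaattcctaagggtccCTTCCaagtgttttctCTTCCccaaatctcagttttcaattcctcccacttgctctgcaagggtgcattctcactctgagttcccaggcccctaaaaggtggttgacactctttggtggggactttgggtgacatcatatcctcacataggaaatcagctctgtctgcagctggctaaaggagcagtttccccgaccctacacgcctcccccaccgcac
The Cd3e window held 3 matches to GGAAG and the Cd8a window 2, while the Themis and Cd3g windows held none of the 3 strings searched. Other forms of the ETS motif were not searched, so these windows cannot be said to lack it. A match of this kind is a description of the letters and says nothing of binding.

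The libraries held from 2796688 to 18706281 counts, and no pair of libraries was identical. The median total was 9.38e+06 in AL livers of 19 months and 9.42e+06 in AL livers of 6 months. Depth went with the replicate letter in AL, with medians of 11070224 (A) and 7960992 (B) at 19 months and 7761928 (A) and 15912855 (B) at 6 months. The median of a group lay between 7.34e+06 and 8.55e+06 in the CR groups of 19 months and between 4.87e+06 and 6.15e+06 in those of 6 months, so within CR the older groups were sequenced more deeply. Levels are given as CPM, counts per 1000000 counts after scaling of library size by TMM. Hepatocyte markers (Alb, Apoa1, Ttr and Serpina1c) summed to between 45581 and 116080 CPM in AL livers of 19 months and between 66624 and 101910 CPM in AL livers of 6 months. The labels do not say what livers with the same replicate letter share, and p-values measure the spread between these livers.

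All 10 genes were scarce. Over the 288 libraries at least 1 count was found for Il2rb in 98.96%, Cd3e in 95.49%, Cd3g in 95.49%, Ccl5 in 94.79%, Nkg7 in 85.42%, Themis in 80.9%, Cd8a in 77.08%, Gzma in 65.97%, Cd3d in 62.5% and Gzmk in 23.61%. Detection depends on depth, so it was also calculated for every library thinned to 2796688 counts, the total of the smallest. At that depth Themis would be found in 95.23% of AL livers of 19 months and 61.86% of AL livers of 6 months. Cd8a had 93.81% and 51.84% on the same scale, and Gzmk 48.9% and 7.313%. Cd3d went the other way, with 39.84% at 19 months and 48.43% at 6 months. Gzmk had no count in any of the 24 CR-night-12h livers of 6 months, where 3 counts over the 124274213 of the group would be 0.02414 CPM, a limit that covers counting error only.

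**Figure D1:**
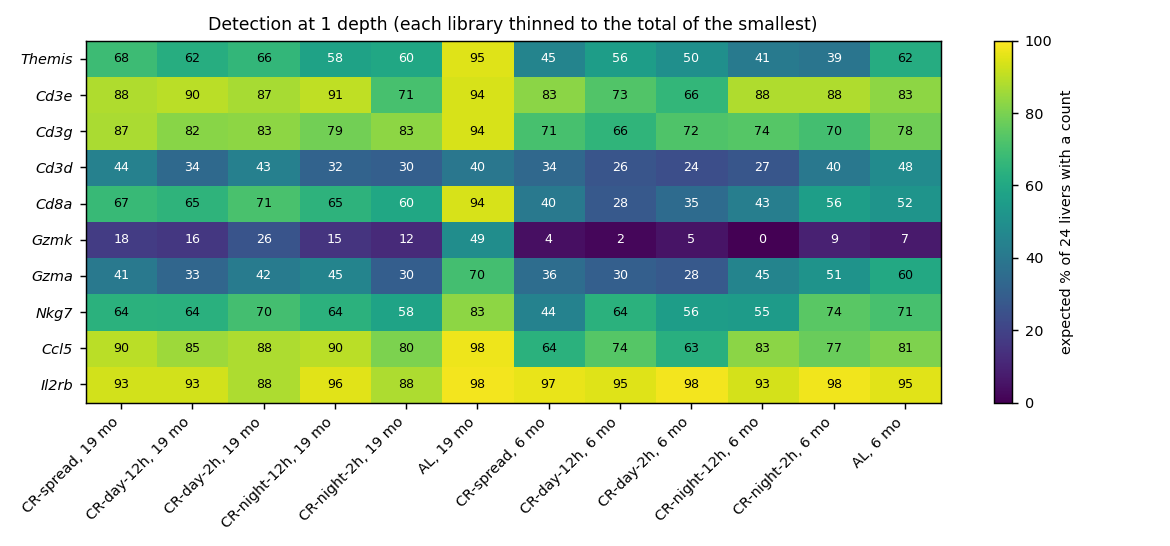
Expected share of the 24 livers of a group with at least 1 count, in percent, after thinning each library to the same total, for the 10 genes (vertical) and the 12 groups (horizontal, 19 months on the left and 6 months on the right). Gzmk has its highest share in AL livers of 19 months, at 48.9%.

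Low counts decided which genes could be tested. Of the 10 genes, 6 passed the filter on low counts (Themis, Cd3e, Cd3g, Cd8a, Ccl5 and Il2rb), and Cd3d, Gzmk, Gzma and Nkg7 did not. The filter asked for 1.40 CPM in at least 20 libraries. Themis met that level in 32 libraries, 21 of them AL livers of 19 months and 0 of them AL livers of 6 months. Cd8a met it in 26 libraries, 12 of them AL livers of 19 months, and Cd3g in 27, 9 of them AL livers of 19 months. Outside that group these 3 genes met it in 11, 14 and 18 libraries, so they passed only through the group in which they were high. Counts over the tested genes are therefore no measure of all 10, and no support for a difference between AL livers of 19 months and other groups. A difference is called here when the adjusted p of edgeR's quasi-likelihood test, with Benjamini-Hochberg adjustment over 12228 genes, was under 0.05 and the fold change was at least 1.5. Lower RNA of these genes in whole liver can mean fewer cells of a type or less RNA per cell, and these cannot be told apart in bulk samples. Which cells of the liver held the RNA of each gene was not tested.

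In AL livers Themis had the largest ratio of means between the ages among the 10 genes, 18.7. It had 0, 4.24 and 23.3 CPM (lowest, median and highest of 24 livers) at 19 months, against 0.0613, 0.321 and 0.962 CPM at 6 months. Of the 24 older livers, 22 lay above the highest younger liver, and the exceptions were both replicate B livers, that of hour 40 with no Themis count and that of hour 28 with 0.547 CPM. The mean was 6.65 ± 6.65 CPM at 19 months and 0.356 ± 0.224 CPM at 6 months (SD, n = 24 each), and the log2 fold change was 4.24 (SE 0.35, adjusted p = 2.1e-25). The older livers also differed widely among themselves: 6 of them had between 10.6 and 23.3 CPM and the other 18 had between 0 and 5.84 CPM. Leaving out each older liver in turn kept the call.

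The CD3 chains did not share the size of that difference. Cd3e, the epsilon chain, had 0.126, 1.45 and 4.47 CPM at 19 months, against 0.185, 0.642 and 1.76 CPM at 6 months. The groups overlapped, with 11 of 24 older livers above the highest younger liver, and the log2 fold change was 1.20 (SE 0.25, adjusted p = 2.2e-05). Cd3g, the gamma chain, had 0.250, 1.18 and 2.92 CPM at 19 months, against 0.0686, 0.492 and 1.47 CPM at 6 months. Here 8 older livers lay above all younger ones, and the log2 fold change was 1.06 (SE 0.23, adjusted p = 4.5e-05). Both calls were lost without replicate B, when the log2 fold change was 0.78 for Cd3e (adjusted p = 0.066) and 0.66 for Cd3g (adjusted p = 0.093). Cd3d, the delta chain, was not tested with the filter. It had 0, 0.199 and 0.552 CPM at 19 months, against 0, 0.246 and 0.625 CPM at 6 months, so the older livers lay within the range of the younger ones. In a fit without the filter its log2 fold change was -0.24 (SE 0.36, adjusted p = 0.71).

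Cd8a encodes the alpha chain of the CD8 co-receptor. It had 0.209, 1.29 and 3.55 CPM at 19 months, against 0, 0.221 and 1.66 CPM at 6 months. All but 1 of the older livers lay above the median of the younger ones and 11 lay above their highest, with a log2 fold change of 2.40 (SE 0.34, adjusted p = 2.1e-10). Ccl5 encodes a chemokine that T cells and NK cells release and that draws further lymphocytes. It had 0.252, 1.90 and 9.89 CPM at 19 months, against 0.154, 0.588 and 1.86 CPM at 6 months. The upper 12 of the older livers lay above every younger liver, and the log2 fold change was 2.11 (SE 0.31, adjusted p = 1.4e-09). Il2rb encodes the beta chain that the receptors for IL-2 and IL-15 share. It had 0.663, 1.58 and 2.98 CPM at 19 months, against 0.243, 1.35 and 2.48 CPM at 6 months. The ranges overlapped, with 5 of the older livers above the highest younger liver, and the log2 fold change of 0.34 did not pass the test (95% confidence interval -0.03 to 0.72, adjusted p = 0.12).

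The 3 granule genes fell under the filter, and their values come with few counts. Gzmk, a granzyme of memory-type CD8 T cells, had 0, 0.200 and 1.34 CPM at 19 months, against 0, 0 and 0.293 CPM at 6 months. It summed to 85 counts in 17 of the 24 older livers and to 5 counts in 4 of the 24 younger livers. Without the filter the log2 fold change was 3.26 (SE 0.49, adjusted p = 4.3e-09). Nkg7, a granule membrane protein of NK and cytotoxic T cells, had 0.104, 0.658 and 2.16 CPM at 19 months, against 0.0686, 0.431 and 1.41 CPM at 6 months. Its ranges overlapped in all but 6 older livers, and the log2 fold change without the filter was 0.80 (SE 0.31, adjusted p = 0.033). Gzma, a granzyme abundant in NK cells, had 0, 0.373 and 3.17 CPM at 19 months, against 0, 0.271 and 1.61 CPM at 6 months. Its log2 fold change without the filter was 0.80 (SE 0.40, adjusted p = 0.11), and 2 older livers lay above all younger ones. Without the filter 10.9% of 20166 genes were called higher.

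**Figure D2:**
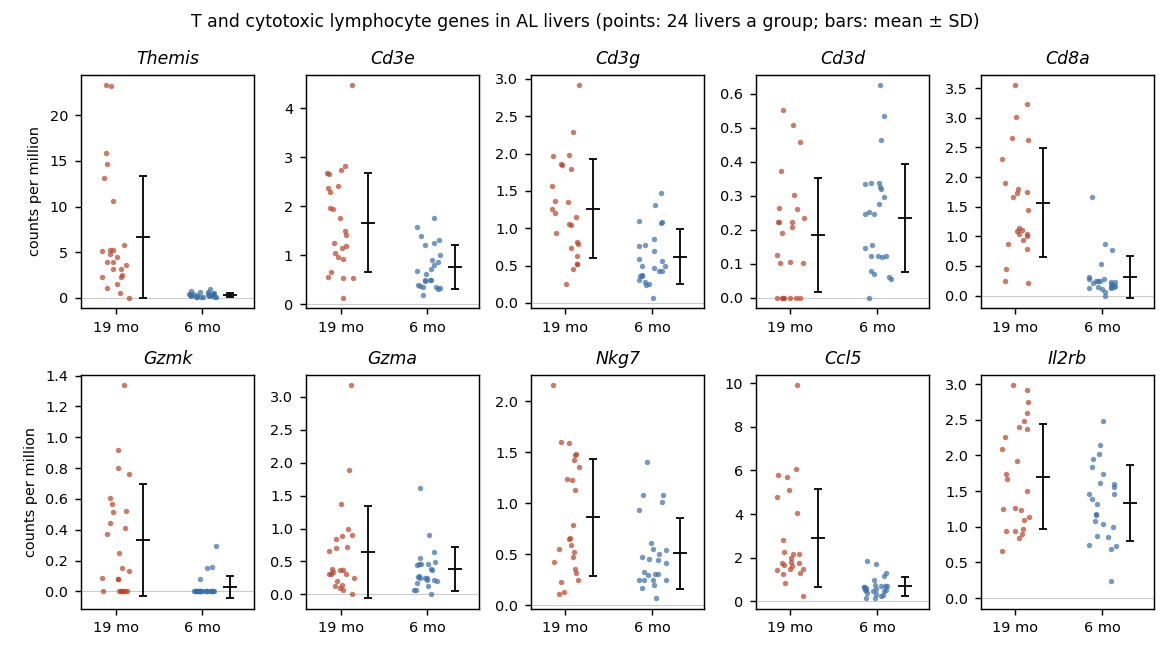
Level of each of the 10 genes in single AL livers, in CPM on a linear axis, at 19 months (left) and 6 months (right). Points are 24 livers a group and bars are the mean ± SD. Themis has 22 of its 24 older livers above the highest younger liver, Cd3d none.

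In AL, 5 of the 6 tested genes were called higher at 19 months and 0 lower, where 10.8% of all 12228 genes were called higher. Themis, Cd8a and Cd3g are among the 5 and reached the test only through that group, so nothing is read from this count. In the edgeR fit without the filter their log2 fold changes were 4.22 (adjusted p = 2.2e-24), 2.36 (adjusted p = 3e-09) and 1.04 (adjusted p = 0.00015). Levels of different genes can be compared only per length. Per kilobase of exon, Ccl5 had 3.02 CPM in AL livers of 19 months, Nkg7 0.944, Themis 0.569, Cd8a 0.431, Cd3e 0.407, Cd3g 0.386, Gzmk 0.241 and Cd3d 0.102 (means of 24 livers, no length being matched for Gzma and Il2rb). Themis thus had a level per length near that of Cd8a and the 2 CD3 genes at 19 months. At 6 months it had 0.0305 CPM per kilobase, below Cd3e with 0.186.

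Themis was also compared with Cd3e within each liver. The log2 ratio of Themis to Cd3e was 1.41 ± 1.37 in AL livers of 19 months and -0.67 ± 0.70 in AL livers of 6 months (SD, n = 24 each). The difference of 2.08 had a two-sided permutation p of 1e-05, the smallest that 100000 permutations can give. Themis had risen more than Cd3e in the same livers, as given above, and the genes were chosen with earlier results known. This p is therefore a description and no separate support. In the CR groups of 19 months the mean ratio lay between -1.07 and -0.37, and in those of 6 months between -1.20 and -0.46. Of the 12 groups, AL livers of 19 months had the highest mean ratio. The ratio is not corrected for length and serves to compare groups. The exons of Themis cover 11682 bases and those of Cd3e 4080, so a ratio of 0 is not an equal level per length. With replicate A alone the difference was 2.69 and with replicate B alone 1.48.

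Livers high in Themis ranked from high to low for Cd3e. The 2 highest for Themis were replicate A of hour 36, with 23.3 CPM and 2.81 CPM of Cd3e (rank 2 of 24), and replicate B of hour 12, with 23.3 CPM and 2.37 CPM of Cd3e (rank 7). Replicate B of hour 36 was rank 4 for Themis, with 14.6 CPM, and rank 3 for Cd3e, with 2.74 CPM. Replicate A of hour 32 had 10.6 CPM of Themis and 0.555 CPM of Cd3e, the fourth lowest of the group. Replicate A of hour 44 had the highest Cd3e, 4.47 CPM, with 5.25 CPM of Themis. Replicate B of hour 24 had the highest Cd8a, 3.55 CPM, the highest Ccl5, 9.89 CPM, and the highest Gzma, 3.17 CPM, with 3.55 CPM of Themis.

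**Figure D3:**
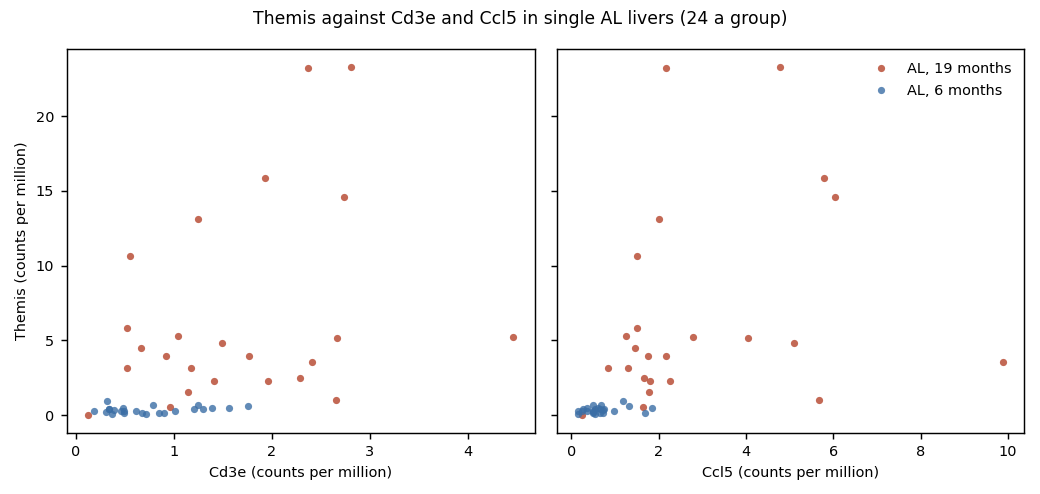
Themis (vertical) against Cd3e and Ccl5 (horizontal) in single AL livers, all in CPM, with 24 livers of 19 months and 24 of 6 months. The older livers with over 10 CPM of Themis span 0.555 to 2.81 CPM of Cd3e.

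Over the 24 AL livers of 19 months the Spearman coefficient of log2 CPM was 0.80 for Cd3e and Ccl5, 0.79 for Cd8a and Ccl5, 0.76 for Cd3g and Ccl5, 0.72 for Cd3g and Cd8a, 0.71 for Cd3e and Cd8a and 0.70 for Cd3e and Cd3g. Themis had lower coefficients with the same genes, 0.30 with Cd3e, 0.30 with Cd3g, 0.30 with Ccl5 and 0.09 with Cd8a. The genes most like Themis among the 12227 others were Siae (0.87), Gpat3 (0.86), Ermp1 (0.83), Osbpl3 (0.82) and Tmem237 (0.82), of which Siae encodes a sialic acid acetylesterase and Gpat3 an acyltransferase of triglyceride synthesis. Those most like Cd3e were Ccl5, Mtcl1, H2-Eb1, Cd8a and Rbmx, of which H2-Eb1 encodes a class II antigen-presenting chain. These coefficients describe single livers that also share their time point and depth. Library size had a coefficient of 0.35 with Themis and -0.14 with Cd3e.

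Other genes of the T cell receptor and of cytotoxic cells gave a mixed picture in AL livers, to be read against the 10.8% of all genes called higher. Of 21 further T cell genes 18 were in the tables and 5 were tested. Of these Il7r, the receptor for the T cell survival factor IL-7, rose by 1.30 on the log2 scale (SE 0.26, adjusted p = 7.4e-06). Cd4, the co-receptor of helper T cells, fell by 1.18 (SE 0.24, adjusted p = 8.4e-06), and Thy1, Icos and Tcf7 did not pass. Among 9 signalling partners of the receptor 7 were tested and 3 rose, Vav1 by 1.11, Lcp2 by 1.10 and Lck, the kinase that starts the signal, by 0.88. Plcg1 and Ptpn6, with log2 fold changes of -0.56 and 0.52, had adjusted p of 9.2e-10 and 2.6e-09 but a fold change under 1.5. Of 21 other cytotoxic and NK cell genes 3 were tested and 2 rose, Gzmb by 1.39 and Klrk1, an activating receptor, by 0.92. This was not particular to AL: 2 of the 3 were also called higher with age in CR-spread, CR-day-2h and CR-night-12h (5.53%, 5.71% and 4.54% of all genes). In CR-day-12h and CR-night-2h it was 1 (5.22% and 2.09% of all genes). The difference from the age effect in AL was called for none of the 3 in any CR group.

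Of 4 tested genes of inhibitory receptors and exhausted T cells 3 rose, Havcr2 by 1.69, Entpd1 by 1.07 and Tox by 0.92, and Lag3 did not pass (-0.15, adjusted p = 0.64). These values from whole liver do not show which cells held the RNA, and exhaustion of T cells was not tested. Among 7 tested partners of Il2rb in IL-2 and IL-15 signalling Il2rg, the common gamma chain, rose by 1.11 and the others were not called. The 1 of 5 T cell genes and 1 of 7 partners of Il2rb that rose are not far from the share of all genes. Of 6 tested homing receptors and their ligands 5 rose, among them Cx3cr1 by 2.24, Cxcl9 by 1.22 and Cxcl16 by 0.98.

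Markers of several other cells moved in the same comparison, where 1872 of all 12228 genes were called and 1325 of these (10.8% of all genes) were higher. All 5 genes that every leukocyte uses were called higher, Ptprc by 1.35 and Cytip by 1.34 among them. Their summed level was 29.0, 62.5 and 130 CPM (lowest, median and highest) in AL livers of 19 months and 16.7, 27.8 and 38.9 CPM in those of 6 months. Of 6 Kupffer cell and macrophage markers 4 were called higher, with sums of 74.4, 159.6 and 423 CPM at 19 months and 48, 109.3 and 164 CPM at 6 months, while Clec4f and Marco were not. Of 5 tested B and plasma cell markers 4 were called higher, and of 3 neutrophil markers all 3. The 5 NK cell markers (Ncr1, Klrb1c, Klre1, Eomes and Klra8) were under the filter, none was at 0 in the group, and they summed to 0.418, 1.37 and 2.40 CPM at 19 months and 0.428, 0.878 and 1.34 CPM at 6 months. Of the 4 hepatocyte markers 2 were called lower, with a median sum of 76187 CPM at 19 months and 83534 CPM at 6 months. Of 4 stellate cell markers 3 were called higher, with sums of 249.7, 381 and 530.5 CPM at 19 months and 184, 236 and 270.9 CPM at 6 months. The 4 endothelial markers stood closer together, with sums of 57.9, 104.9 and 167.9 CPM at 19 months and 37.9, 98.9 and 134.7 CPM at 6 months. The part of these cells in the results for the 10 genes was not tested.

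Under CR the older livers had less Themis than AL livers of that age. The question here was how each CR schedule stood against AL at the same age, and the 5 comparisons share the same AL livers, whose Themis values are given above. Themis had 0, 0.446 and 2.90 CPM in CR-spread livers of 19 months, 0, 0.344 and 3.87 CPM in CR-day-12h, 0, 0.453 and 3.67 CPM in CR-day-2h, 0, 0.322 and 1.33 CPM in CR-night-12h and 0, 0.348 and 3.40 CPM in CR-night-2h. The highest liver of each CR group lay below the AL median of 4.24 CPM. The log2 fold change over AL was -3.70 in CR-spread (adjusted p = 3.8e-20), -3.25 in CR-day-12h (adjusted p = 5.9e-18), -3.08 in CR-day-2h (adjusted p = 2.7e-16), -3.87 in CR-night-12h (adjusted p = 1.6e-21) and -3.60 in CR-night-2h (adjusted p = 2.6e-20), with standard errors of 0.32 to 0.35.

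**Figure D4:**
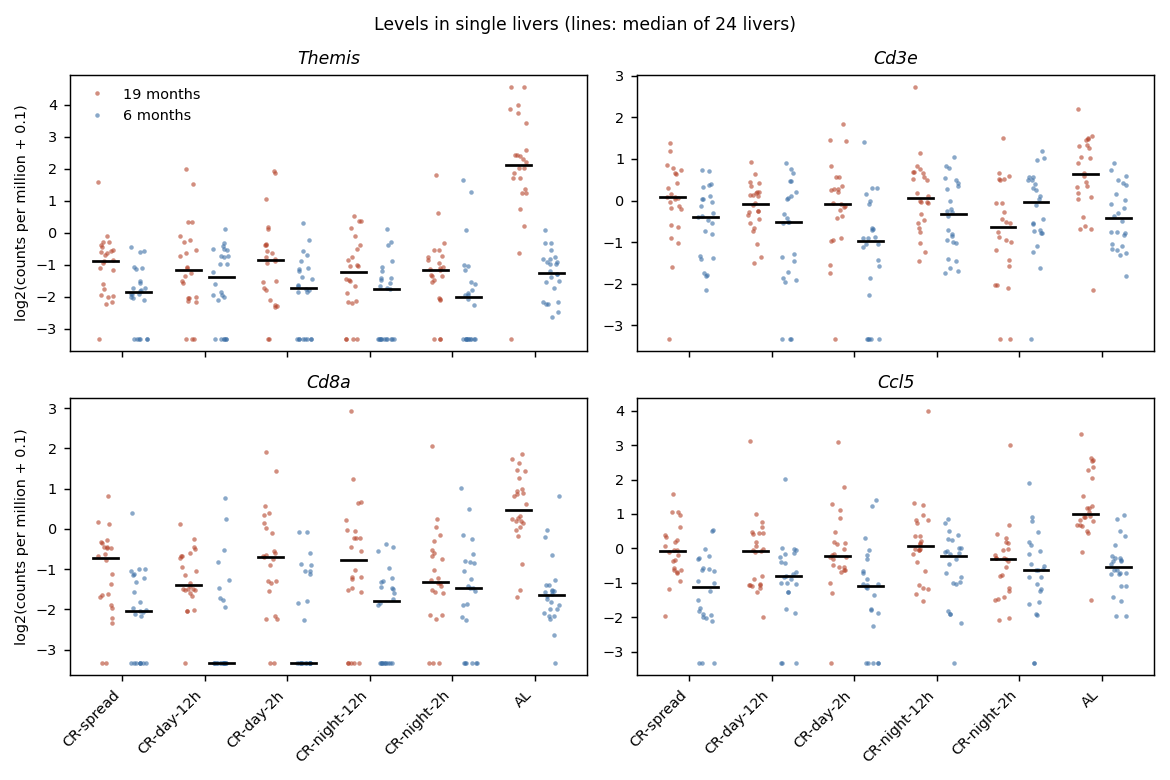
Levels of Themis, Cd3e, Cd8a and Ccl5 in single livers as log2(CPM + 0.1), by feeding condition, with livers of 19 months to the left of those of 6 months and lines at the median of 24 livers. The AL livers of 19 months have a Themis median of 4.24 CPM, above the highest liver of each CR group.

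Of the other genes Cd8a, Ccl5 and Cd3g were called lower in all 5 CR groups, Cd3e and Il2rb in some and Cd3d in none. Themis, Cd8a and Cd3g were tested only through the AL livers of 19 months, so the counts that follow are a description. In CR-spread all 6 tested genes were called lower than in AL at 19 months, where 7.82% of all genes were called lower. In CR-night-2h it was also 6 (8.04% of all genes). In CR-day-12h it was 5 (6.92% of all genes), and Il2rb, at -0.57 with an adjusted p of 0.014, had a fold change under 1.5. In CR-day-2h it was 5 (5.77% of all genes), Cd3e missing the test at -0.59 (95% confidence interval -1.08 to -0.10, adjusted p = 0.059). In CR-night-12h it was 4 (8.91% of all genes), Cd3e and Il2rb missing it at -0.48 and -0.41 (adjusted p = 0.11 and 0.079).

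Cd8a had medians of 0.304 CPM in CR-night-2h livers of 19 months, 0.489 in CR-night-12h, 0.521 in CR-day-2h, 0.283 in CR-day-12h and 0.504 in CR-spread, against 1.29 CPM in AL. Its log2 fold change over AL ranged from -1.97 in CR-day-12h (adjusted p = 2.8e-07) to -0.88 in CR-night-12h (adjusted p = 0.015). Ccl5 had medians of 0.713, 0.944, 0.756, 0.856 and 0.849 CPM in the same order, against 1.90 CPM in AL, and log2 fold changes from -1.51 in CR-spread (adjusted p = 2e-05) to -0.86 in CR-night-12h (adjusted p = 0.012). Both ranges turned on single livers. Without replicate A of hour 16 in CR-night-12h the values there were -1.34 for Cd8a (adjusted p = 0.00016) and -1.44 for Ccl5 (adjusted p = 1.5e-05). Without replicate B of hour 16 in CR-night-2h Ccl5 had -2.05 there (adjusted p = 4.5e-09), further from 0 than in CR-spread, and Cd8a had -1.94 (adjusted p = 1.5e-07). The 5 leukocyte genes were called lower in each of the 5 comparisons, with median sums of 21.7 to 29.2 CPM in the CR groups and 62.5 CPM in AL. Their part in the difference was not tested.

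Cd3g had medians of 0.608, 0.522, 0.530, 0.502 and 0.622 CPM in the 5 CR groups of 19 months in that order, against 1.18 CPM in AL, and log2 fold changes from -0.996 in CR-day-12h (adjusted p = 0.00036) to -0.59 in CR-day-2h (adjusted p = 0.043). In the edgeR fit without the filter Cd3g missed the test in CR-day-2h (adjusted p = 0.068) and in CR-night-12h (adjusted p = 0.052). Cd3e had medians of 0.539, 0.934, 0.847, 0.844 and 0.952 CPM, against 1.45 CPM in AL, and its log2 fold change furthest from 0 was -1.17 in CR-night-2h (adjusted p = 7e-05). Il2rb had medians of 0.987, 1.16, 1.05, 1.03 and 1.09 CPM, against 1.58 CPM in AL, so its groups stood closest together.

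The granule genes were compared without the filter. Gzmk was found in 8 of 24 CR-spread livers of 19 months, 9 of CR-day-12h, 11 of CR-day-2h, 7 of CR-night-12h and 5 of CR-night-2h, against 17 of 24 in AL. It was called lower than in AL in CR-spread (-1.98, adjusted p = 0.00042, 6.87% of 20166 genes), CR-day-12h (-2.11, adjusted p = 0.00013, 6.05%), CR-night-12h (-1.64, adjusted p = 0.0024, 8.13%) and CR-night-2h (-1.86, adjusted p = 0.00047, 6.77%), and missed the test in CR-day-2h (-0.95, adjusted p = 0.1, 4.84%). Gzma and Nkg7 were called lower in CR-spread, CR-day-12h and CR-night-2h and missed the test in CR-day-2h and CR-night-12h. In CR-day-2h replicate A of hour 40 gave 49 of the 86 Gzma counts, 26 of the 121 of Nkg7 and 12 of the 29 of Gzmk. In CR-night-12h replicate A of hour 16 gave 16 of the 69 Gzma counts, 18 of the 103 of Nkg7 and 8 of the 17 of Gzmk. Cd3d was called in none of the 5, with log2 fold changes from -0.34 in CR-day-12h to 0.37 in CR-day-2h, and its mean was 0.219 CPM in CR-spread and 0.252 CPM in CR-day-2h, against 0.186 CPM in AL.

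At 6 months none of the 6 tested genes was called in any of the 5 CR groups against AL, where 7.21% (CR-night-2h), 6.63% (CR-night-12h), 8.16% (CR-day-2h), 6.53% (CR-day-12h) and 7.47% (CR-spread) of all genes were called in either direction. By edgeR's quasi-likelihood test 0 of the 30 values had an unadjusted p under 0.05, and DESeq2 also called 0. Without the filter Cd3d was called in CR-day-2h, and without replicate B Cd3e was. For Themis the log2 fold change ran from -0.65 in CR-spread (adjusted p = 0.33) to 0.22 in CR-night-2h (adjusted p = 0.76).

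The ages were also compared within each CR schedule. In CR-day-2h 5 of the 6 tested genes were called higher at 19 months than at 6 months (5.71% of all genes), in CR-spread 4 (5.53%), in CR-night-12h 3 (4.54%), in CR-day-12h 2 (5.22%) and in CR-night-2h 0 (2.09%). In CR-night-2h Il2rb was called lower, where 2.4% of all genes were. Il2rb had 0, 0.987 and 2.21 CPM in CR-night-2h livers of 19 months, against 0.339, 1.45 and 4.60 CPM in those of 6 months, with a log2 fold change of -0.64 (SE 0.21, adjusted p = 0.011). Without the filter Gzmk (2.47), Gzma (1.61), Cd3d (1.44) and Nkg7 (0.998) were called higher with age in CR-day-2h (5.41% of 20166 genes), and Gzmk (2.75) in CR-night-12h (3.98%). Replicate A of hour 40 gave 49 of the 86 Gzma counts of the older CR-day-2h livers and 12 of the 29 of Gzmk. For Nkg7 it gave 26 of 121 and for Cd3d 7 of 45. Replicate A of hour 16 gave 8 of the 17 Gzmk counts of the older CR-night-12h livers. How far these calls rest on the 2 livers was not tested.

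Themis had log2 fold changes with age of 1.54 in CR-day-2h (adjusted p = 0.0035), 1.20 in CR-spread (adjusted p = 0.045), 1.09 in CR-day-12h (adjusted p = 0.045), 0.95 in CR-night-12h (adjusted p = 0.12) and 0.43 in CR-night-2h (95% confidence interval -0.43 to 1.28, adjusted p = 0.48). In the edgeR fit without the filter Themis kept its call in CR-day-2h (adjusted p = 0.0049). It missed the test there in CR-spread (adjusted p = 0.062) and in CR-day-12h (adjusted p = 0.065). Of the 10 genes that fit called 3 higher with age in CR-spread and 0 in CR-day-12h. The value for CR-night-2h rested on 2 of the younger livers. Replicate A of hour 8 had 2.99 CPM and replicate A of hour 12 had 2.29 CPM, which gave 34 of the 53 Themis counts of that group, while its median was 0.147 CPM and the other 22 livers had at most 0.967 CPM. Without the first the log2 fold change was 0.85 (adjusted p = 0.14), without the second 0.89 (adjusted p = 0.13), and without both 1.63 (adjusted p = 0.0083), which was called. The ranges of Themis overlapped in all 5 conditions, with at most 6 of 24 older livers above the highest younger one. Cd8a was called in CR-night-12h at 2.00 (adjusted p = 6.6e-05), in CR-day-2h at 1.87 (adjusted p = 0.00026) and in CR-spread at 1.20 (adjusted p = 0.029), and had 0.60 in CR-night-2h (95% confidence interval -0.18 to 1.39, adjusted p = 0.25). Cd3e was called in CR-day-2h, at 1.10 (adjusted p = 0.0017), and not in the other CR groups, where it lay between -0.33 and 0.57. Depth differed between the ages in CR, as given above, and its part was not tested.

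**Figure D5:**
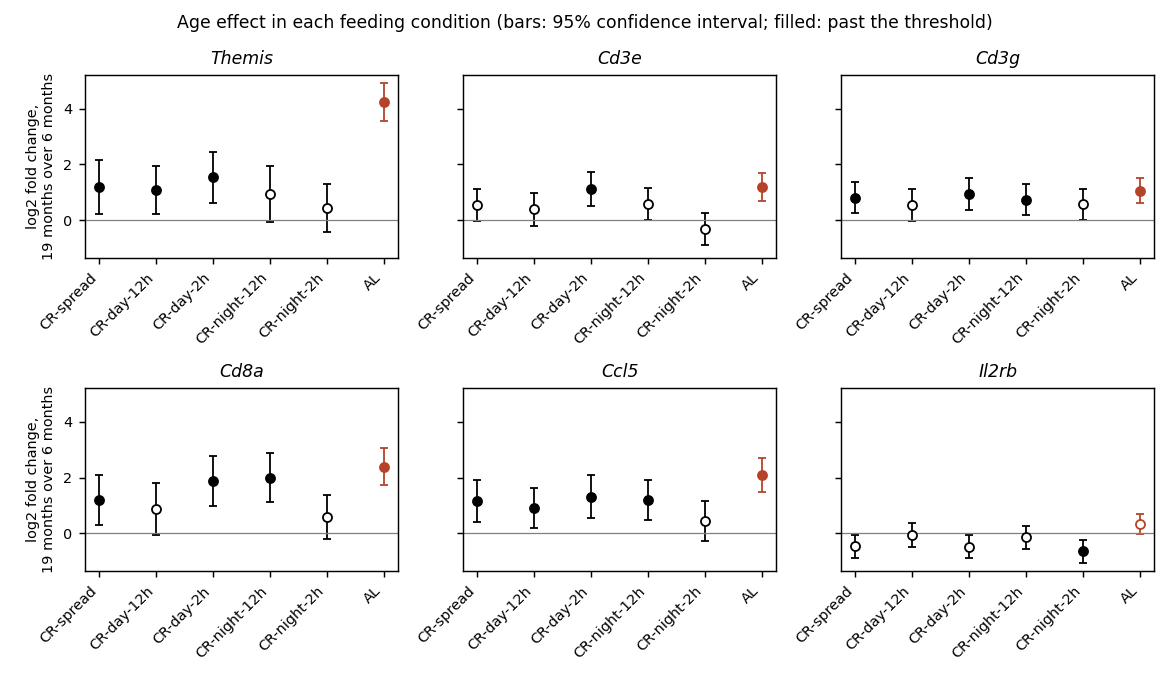
Log2 fold change, 19 months over 6 months, of the 6 tested genes in the 5 CR groups and in AL, with 95% confidence intervals. Filled points passed the threshold. Themis stands at 4.24 in AL and between 0.43 and 1.54 in the CR groups.

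The difference between the age effect in CR and that in AL was itself tested. For Themis it was -3.81 in CR-night-2h (SE 0.59, adjusted p = 1.7e-08), -3.29 in CR-night-12h (adjusted p = 8.1e-05), -3.15 in CR-day-12h (adjusted p = 1.8e-05), -3.05 in CR-spread (adjusted p = 0.00015) and -2.70 in CR-day-2h (adjusted p = 0.00055). These 5 tests share the AL livers of both ages. Themis, Cd8a and Cd3g were tested only through the AL livers of 19 months, so the counts that follow are a description. In the edgeR fit without the filter Themis was called in the 5 groups, with adjusted p from 2.6e-08 in CR-night-2h to 0.00078 in CR-day-2h. Cd8a in CR-night-2h had -1.78 in that fit (adjusted p = 0.0087). In CR-night-2h 5 of the 6 genes were called (12% of all genes were called lower), Cd3e at -1.53, Cd8a at -1.79, Ccl5 at -1.66 and Il2rb at -0.99 beside Themis, and Cd3g was not (-0.49, 95% confidence interval -1.23 to 0.24). Without replicate A of hour 8 in the younger CR-night-2h group the Themis difference was -3.38 (adjusted p = 3.1e-06), and without replicate A of hour 12 it was -3.35 (adjusted p = 7.6e-06). The difference without both was not fitted. The age effect of Themis in CR-night-2h was 1.63 without both, as given above, against 1.54 in CR-day-2h. No order of the CR groups is therefore read from the Themis differences. With replicate B alone the Themis difference in CR-night-2h was -2.06 and missed the test (adjusted p = 0.14). In CR-spread and CR-day-2h Themis and Il2rb were called (8.01% and 7.84% of all genes), Il2rb at -0.80 and -0.81. In CR-day-12h and CR-night-12h the call was for Themis alone (5.24% and 7.94% of all genes). Of the 30 differences the other 19 did not pass, among them Cd3e in CR-day-2h at -0.09 and Cd8a in CR-night-12h at -0.39. Without the filter Cd3d went the other way in CR-day-2h, where its age effect exceeded that in AL by 1.68 (SE 0.59, adjusted p = 0.031, 3.59% of 20166 genes called higher), and Gzmk was called in CR-night-2h at -2.59 (SE 0.89, adjusted p = 0.021, 8.16% called lower).

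The hour and length of feeding were compared among the CR groups of 19 months, and none of the 6 genes was called. Night over day feeding had log2 fold changes of -0.58 (2 h, unadjusted p = 0.0335, adjusted p = 0.39) and 0.44 (12 h, adjusted p = 0.42) for Cd3e, where 0.393% and 1.34% of all genes were called. For Cd8a the value at 12 h was 1.10 (95% confidence interval 0.39 to 1.81, adjusted p = 0.063). Feeding over 2 h against 12 h gave Cd8a 0.91 by day (adjusted p = 0.53) and -0.54 by night (adjusted p = 0.61), where 0.164% and 0.327% of all genes were called. The 4 groups with a daily fast against CR-spread gave Themis 0.25 (95% confidence interval -0.38 to 0.87, adjusted p = 0.76), where 0.769% of all genes were called. The intervals for Themis in the 4 other comparisons lay within -1.39 and 1.06. By edgeR's quasi-likelihood test 4 of these 30 values had an unadjusted p under 0.05, and DESeq2 also called 0.

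Some CR livers of 19 months stood apart in nearly all of these genes at once. Replicate A of hour 16 in CR-night-12h had 15.8 CPM of Ccl5, 7.49 of Cd8a, 6.51 of Cd3e and 5.32 of Cd3g, the highest of its group for each, while the other 23 livers had at most 2.38, 2.24, 2.09 and 1.82 CPM. Its Themis was 1.18 CPM, the third highest of the group. Without that liver the age effect in CR-night-12h was called for Cd8a alone, Ccl5 having 0.63 (adjusted p = 0.14) and Cd3g 0.45 (adjusted p = 0.19). Without it Cd3e was also called lower than in AL, and Ccl5 was added to the difference of age effects.

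Replicate A of hour 40 in CR-day-2h had 8.47 CPM of Ccl5, 8.13 of Gzma, 4.32 of Nkg7, 3.65 of Cd8a and 3.49 of Cd3e. For Gzma the other 23 livers had at most 1.11 CPM. Leaving it out kept the 5 tested genes of the age effect and added Cd3e to those lower than in AL. Cd3d and the granule genes, under the filter, were not fitted without it. Replicate B of hour 16 in CR-night-2h was the highest of its group for 9 of the 10 genes, among them Ccl5 at 7.91 CPM, Cd8a at 4.08 CPM and Themis at 3.40 CPM. Leaving it out kept the count of each comparison given above except 1: Ccl5 was then lower in CR-night-2h than in CR-night-12h.

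Other livers were high in a single gene. Replicate B of hour 0 in CR-day-12h had 3.87 CPM of Themis and 0.725 of Cd3e, and without it Themis had a log2 fold change with age of 0.70 (adjusted p = 0.25) and Ccl5 of 0.89 (adjusted p = 0.06), so that CR-day-12h had 0 calls. Replicate B of hour 32 in CR-day-12h had 8.53 CPM of Ccl5, against at most 1.90 in the other 23, and without it Ccl5 had 0.44 (adjusted p = 0.37). Replicate B of hour 12 in CR-spread had 2.90 CPM of Themis, against at most 0.830 in the other 23, and without it Themis had 0.93 (adjusted p = 0.15). The Themis calls with age in these 2 conditions thus each rested on 1 liver, while Themis kept its call of lower than AL at 19 months in the 5 CR groups without these livers.

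A daily rhythm of 24 h was tested in each group with a cosine fit over the 12 time points. Themis was called in AL livers of 19 months, with a peak at hour 10.8 and an amplitude of 1.21 on the log2 scale (adjusted p = 0.0045, 34.7% of all genes). Its replicates at hours 8, 12 and 36 had 15.9 and 13.1, 3.97 and 23.3, and 23.3 and 14.6 CPM, while hour 32 had 10.6 and 1.56 CPM. Without replicate A it was not called. Themis was also called in CR-night-2h livers of 6 months (peak at hour 9.07, adjusted p = 0.02, 28.2% of all genes) and in CR-day-2h livers of 6 months (peak at hour 21.4, adjusted p = 0.044, 27.1% of all genes), where the median liver held 1 count of it. In CR-night-2h 34 of the 53 counts came from replicate A of hours 8 and 12, on either side of that peak. Il2rb was called in AL livers of 6 months (peak at hour 3.88, adjusted p = 0.012, 36.3% of all genes) and Ccl5 in CR-day-2h livers of 19 months (peak at hour 14.1, adjusted p = 0.04, 19.2% of all genes). None of these calls was kept without replicate A. In the other 7 groups 0 of the 6 genes were called. There 37.5% (CR-night-12h), 41.6% (CR-day-12h) and 19.4% (CR-spread) of all genes were called at 6 months, and 29.6% (CR-night-2h), 26.7% (CR-night-12h), 21.8% (CR-day-12h) and 13.6% (CR-spread) at 19 months. Each group had 1 animal per replicate and hour, so a high liver and a peak hour cannot be told apart at a single time point.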

How the data were processed

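RNA was measured in 288 livers of male mice, 24 in each of 12 groups of feeding condition and age, and samples were grouped by their labels. The authors counted reads per gene and deposited these raw counts without normalization, as 1 table per group. FastQC, cutadapt, STAR and featureCounts are named in the submitters' processing notes without versions, and build, annotation and strand setting are not stated in any source used here. A deposited RPKM table of the authors was not used, since it holds 1 of the 10 genes. For lighting, the labels state 12 h of light and 12 h of dark. The study states that mice were moved to constant darkness for the collection of livers, and the table headings also state constant darkness.

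Counts were fitted in edgeR 4.0.16 (R 4.3.3, limma 3.58.1) in 1 model of 12 group means with TMM factors and the default filter on low counts, which left 12228 genes, and the quasi-likelihood test was adjusted over all of them by Benjamini-Hochberg. The common biological coefficient of variation was 0.263. A call needs an adjusted p under 0.05 and a fold change of at least 1.5, as in the study. Daily rhythm was tested by a cosine of 24 h in each group's own fit, at an adjusted p under 0.05. CPM are counts per 1000000 counts after TMM scaling. Log2 ratios and coefficients use a prior count of 2. Alternatives were DESeq2 1.42.0, other scalings, no filter, terms for time point, a replicate block, parts of the samples and single livers left out. The tests were run on simulated data first. Totals of 2796688 to 18706281 counts set the precision, and intervals cover the spread between livers or, for a count of 0, counting error only.

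The members and the other lists were chosen with earlier results of these data known. All 10 genes are named, and of each other list at most the 4 tested genes with the smallest p in the AL age effect, with others named to complete a count after their values were seen. Genes most like Themis and Cd3e are the 5 highest Spearman coefficients. Coordinates are those of GENCODE M21 (GRCm38) where the versioned identifier was identical, for 8 of the 10 genes. Promoters are those of RefSeq on GRCm38.p6, matched by symbol.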

Additional observations from a re-analysis of the deposited data

Results flagged for a closer look

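The age effect of a gene (19 months over 6 months, log2) differed between a CR group and AL by the interaction test of edgeR in 13 cases, 12 of them negative. For Themis the difference of CR minus AL was -3.05 in CR-spread, -3.15 in CR-day-12h, -2.70 in CR-day-2h, -3.29 in CR-night-12h and -3.81 in CR-night-2h. The last value depends on 2 younger CR-night-2h livers high in Themis, and the difference without both was not fitted. For Il2rb it was -0.80 in CR-spread, -0.81 in CR-day-2h and -0.99 in CR-night-2h. In CR-night-2h it was also -1.53 for Cd3e, -1.79 for Cd8a and -1.66 for Ccl5. In the fit without the filter on low counts it was -2.59 for Gzmk in CR-night-2h and, in the other direction, 1.68 for Cd3d in CR-day-2h. These tests share the AL livers of both ages, and no cause was tested. Themis and Cd8a passed the filter only through AL livers of 19 months, and their differences given here were also called without it.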

How the results depend on the processing

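Of the alternative values of single genes, 756 kept direction and side of the threshold, 122 kept their direction without passing it, 1 passed it (Themis with age in CR-night-2h without 2 younger livers, 1.63) and 0 reversed. Apart from that Themis value they follow genes called in the main fit, and 120 of the 756 come from fits without 1 older AL liver. Without replicate A 31 of 57 calls were lost, without replicate B 19, within hours 0 to 20 29 and within hours 24 to 44 19. Of the counts and the ratio, 360 were kept and 68 moved. With age in AL, 5 genes were called in the alternatives other than no filter (7) and without replicate B (3), and in all 24 fits that left out 1 older liver. Themis was called with age in AL and lower than AL in the 5 CR groups of 19 months under every alternative run. All of these but the fit without the filter kept the filter that Themis passed only through AL livers of 19 months. The replicate block moved no count beyond 1.5 times (5 in AL) and took 1 call, Il2rb in CR-spread against AL at 19 months. Letters A and B were not taken to pair livers, since no source says what a letter marks: A minus B differences of the ages correlated at 0.269 in CR-day-12h and at -0.074 to 0.082 in the other 5 conditions over 12228 genes. A fit on the deposited RPKM values was planned and not run, since that table holds 1 of the 10 genes. The left-out single livers were chosen after seeing the data. Depth limits Cd3d, Gzmk, Gzma and Nkg7, whose counts were under the filter, and the causes of the changes below were not tested.

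When replicate A, replicate B or a single liver was left out, the number of genes called ranged from 3 to 5 for the age effect in AL, 1 to 3 in CR-spread, 0 to 1 in CR-day-12h, 0 to 5 in CR-day-2h and 0 to 4 in CR-night-12h. For the difference of age effects it ranged from 1 to 2 in CR-spread, CR-day-12h and CR-day-2h, 1 to 3 in CR-night-12h and 2 to 5 in CR-night-2h. Against AL at 19 months it ranged from 3 to 6 in CR-spread and CR-day-12h, 1 to 6 in CR-day-2h, 1 to 5 in CR-night-12h and 2 to 6 in CR-night-2h, and at 6 months from 0 to 1 in CR-day-2h. It ranged from 0 to 1 for night over day at 2 h and at 12 h, and from 0 to 2 for 2 h over 12 h by night. For daily rhythm it ranged from 0 to 1 in AL and CR-day-2h at 19 months and in CR-night-2h at 6 months, and was 0 in AL and CR-day-2h at 6 months.

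Without the filter, 0 genes were called with age in CR-day-12h and 9 in CR-day-2h, 1 in CR-day-2h against AL at 6 months and 8 in CR-day-12h against AL at 19 months. Scaling by library totals alone gave 1 with age in CR-day-12h, as did DESeq2, and fitting only the groups compared gave 0. The difference of age effects in CR-day-12h had 2 with time point terms and 2 with only the groups compared. Hours 0 to 20 alone gave 3, 0 and 1 with age in CR-day-2h, CR-day-12h and CR-spread. They gave 3 for the difference of age effects in CR-night-2h and 0 in CR-day-2h, CR-day-12h and CR-spread, and 3, 1, 2 and 1 against AL at 19 months in CR-night-2h, CR-night-12h, CR-day-2h and CR-spread. Hours 24 to 44 alone gave 0, 1, 1, 0 and 1 with age in CR-night-2h, CR-night-12h, CR-day-2h, CR-day-12h and CR-spread. They gave 1 and 3 for the difference of age effects in CR-day-2h and CR-night-2h and 3 in CR-day-2h against AL. A rhythm fit of all groups together gave 0 in AL and CR-day-2h at 6 months, 2 in CR-day-2h and 3 in CR-night-12h at 19 months.

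Over all genes, 1872 were called with age in AL, 6096 with no fold threshold and 2932 without the filter. In the other comparisons calls also moved by over 1.5 times, chiefly with no fold threshold or within 1 of the 2 days. Night over day at 12 h, for example, had 164 calls, 407 with no fold threshold, 328 with library totals alone and 53 within hours 0 to 20.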
